A study of Mus musculus with 5 samples.

Results

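RNA levels, and not killing itself, were followed in the kidney of NZB/NZW F1 mice for 10 genes of cytotoxic T cells and natural killer (NK) cells. The genes were taken by gene symbol from a table of 21878 genes. They are Gzma, Gzmb, Prf1 and Nkg7 of the cytotoxic granule, Cd8a, Cd8b1 and Cd4 of the T cell co-receptors, and Cd3d, Cd3e and Cd3g of the T cell receptor complex, and all 10 of the 10 were in the table. NZB/NZW F1 mice are a cross of 2 inbred strains that develops lupus-like autoimmunity and nephritis, and the study asked what diosmetin, a plant flavone, does to type I interferon signalling in their kidney. The 3 diosmetin libraries came from mice given 50 mg/kg intraperitoneally on alternate days over 6 weeks, and the 2 vehicle libraries from mice of the same cross given vehicle on the same schedule. The labels do not say that each library is a separate animal, so p-values cover only the spread between these libraries, part or all of which may be technical. Each library was ribosomal RNA-depleted total RNA of whole kidney, and expression was deposited as FPKM (fragments scaled to transcript length and to the total of the library).

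Cytotoxic T cells and NK cells kill by releasing granules in which perforin opens the membrane of the target cell and granzymes, a family of serine proteases, enter and start cell death. T cells recognise their targets through the T cell receptor, whose signal is carried inward by the CD3 chains, while CD8 and CD4 bind MHC class I and class II molecules beside it. NK cells carry no T cell receptor, so the CD3 chains mark chiefly T cells, whereas granzymes, perforin and Nkg7 are shared by both. The CD3 chains do not single out cytotoxic T cells, and Cd4 is the co-receptor of helper T cells. In lupus nephritis T cells and NK cells are found among the leukocytes that enter the kidney.

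All 10 genes were low. Their FPKM values lay between 0.0345 and 2.38, and only Gzmb and Cd8a had a mean over the 5 libraries of at least 1. Because the deposited values step by whole fragments, the fragments behind each value could be recovered (99.9% of genes above 0 came out whole in all 5 libraries, within 0.02 fragments), at library depths from 38.4 to 48.6 M fragments. The members rested on 2 to 224 fragments per library. Intervals given with fragments are exact Poisson 95% intervals and cover counting error only. The tissue label was borne out by kidney markers such as Slc34a1, the sodium-phosphate transporter of the proximal tubule, at 856 to 1432 FPKM, and Umod, the uromodulin of the thick ascending limb, at 1011 to 1781 FPKM.

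Gzmb and Cd8a were higher in every diosmetin library than in either vehicle library, and Cd3d was so at a lower level. Prf1 stood lower in every diosmetin library, by a small amount. The upstream sequences of these 4 genes are shown because the 4 are the members whose groups did not overlap. They are RefSeq sequences of GRCm38.p6, each of the 250 bases before a transcription start, 5′ to 3′ on the gene's own strand. For Cd3d and Prf1 the listed gene begins inside the window, at 44981769 and 61297751, so the last part of each window lies within the gene. Capitals mark matches on either strand to 6 short motifs of factors known in lymphocytes, the RUNX core TGTGGT, the AP-1 site TGANTCA, the core TGACGT of the cyclic AMP response element (CRE), the ETS core AGGAAG, the STAT-binding site TTCNNNGAA and the T-box core TCACAC.
Gzmb, chr14:56262335-56262584, minus strand: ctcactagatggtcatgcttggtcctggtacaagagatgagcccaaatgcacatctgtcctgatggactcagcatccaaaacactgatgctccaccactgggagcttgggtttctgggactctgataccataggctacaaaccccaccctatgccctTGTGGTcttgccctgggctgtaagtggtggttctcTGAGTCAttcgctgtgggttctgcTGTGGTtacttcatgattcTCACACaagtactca
Cd8a, chr6:71373177-71373426, plus strand: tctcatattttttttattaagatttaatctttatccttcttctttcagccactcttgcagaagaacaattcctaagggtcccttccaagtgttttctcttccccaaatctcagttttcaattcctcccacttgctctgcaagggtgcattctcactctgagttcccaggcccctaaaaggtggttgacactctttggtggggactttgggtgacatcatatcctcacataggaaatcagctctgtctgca
Cd3d, chr9:44981536-44981785, plus strand: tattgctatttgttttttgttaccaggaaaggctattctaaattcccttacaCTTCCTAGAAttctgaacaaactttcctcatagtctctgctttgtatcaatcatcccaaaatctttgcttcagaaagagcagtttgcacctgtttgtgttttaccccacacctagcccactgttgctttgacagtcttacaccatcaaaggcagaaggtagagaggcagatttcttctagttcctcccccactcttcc
Prf1, chr10:61297586-61297835, plus strand: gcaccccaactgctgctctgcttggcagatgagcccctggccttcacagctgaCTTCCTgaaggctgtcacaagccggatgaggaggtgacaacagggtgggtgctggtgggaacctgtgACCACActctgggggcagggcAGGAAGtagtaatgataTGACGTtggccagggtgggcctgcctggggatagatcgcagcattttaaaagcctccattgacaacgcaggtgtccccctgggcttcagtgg

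In the Gzmb sequence the RUNX core matched at 93 to 88 and at 34 to 29 bases before the start, the AP-1 site at 58 to 52 and the T-box core at 15 to 10. None of the 6 motifs matched in the Cd8a window. In Cd3d the ETS core and the STAT-binding site overlapped, at 198 to 193 and 197 to 189 bases before the start. In Prf1 the RUNX core, the CRE core and 2 ETS cores matched. Among 32851 promoters of the same length, 14.0% held the RUNX core, 6.75% the AP-1 site, 6.47% the CRE core, 29.5% the ETS core, 7.02% the STAT-binding site and 12.3% the T-box core. Of the 8 members with a promoter in the table, 4 held the RUNX core, 1 the AP-1 site, 2 the CRE core, 4 the ETS core, 2 the STAT-binding site and 2 the T-box core. Cd8b1 and Cd4 were not matched. These are letter matches and not shown to be binding sites.

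The proteases of the granule did not move together. Gzmb encodes granzyme B, which cleaves caspases and other substrates after aspartate. It lies on chromosome 14 from 56258836 to 56262334 of GRCm38 (GeneID 14939). Its level was 0.937 and 0.276 FPKM in vehicle replicates 1 and 2, and 1.82, 2.38 and 2.27 FPKM in diosmetin replicates 1, 2 and 3. These values rested on 51 and 19 fragments under vehicle and on 121, 145 and 145 under diosmetin. The counting intervals of the diosmetin libraries began at 1.51 FPKM, above the upper bound of 1.23 in vehicle replicate 1. The group means were 2.15 ± 0.295 (SD, n = 3) and 0.606 ± 0.467 (SD, n = 2) FPKM, a ratio of 3.55, which came to 7.81 with vehicle replicate 1 left out and to 2.30 with the other vehicle library left out. The log2 difference was 1.0 ± 0.20 (SE, on the log2(FPKM + 1) scale, which understates the change of low genes), larger than that of 99.9% of tested genes, and 0.70 to 1.30 when each library was left out in turn. It did not pass the test over all genes (limma, unadjusted p = 0.00234, adjusted p = 0.738). Granzyme B also differed between the vehicle libraries, whose intervals (0.697 to 1.23 and 0.166 to 0.431 FPKM) did not meet.

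Gzma encodes granzyme A, a tryptase that triggers a caspase-independent form of cell death. It stood at 0.949 and 0.492 FPKM in the vehicle libraries and at 0.850, 0.185 and 1.06 FPKM under diosmetin, from 32, 21, 35, 7 and 42 fragments in that order. The lowest and the highest value were both diosmetin libraries, and the groups overlapped. The log2 difference was -0.045 ± 0.27 (SE, limma adjusted p = 0.974), and it turned to 0.15 without vehicle replicate 1 and to 0.19 without diosmetin replicate 2. Gzma (GeneID 14938) lies on chromosome 13 from 113093824 to 113100981, inside the span of Cdc20b, and Cdc20b itself had at most 8 fragments in a library. Per length, Gzmb stood at 0.987 and 0.560 times Gzma in the vehicle libraries and at 2.14, 12.8 and 2.14 times Gzma in the diosmetin libraries.

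Prf1 encodes perforin, the pore-forming protein that lets granzymes into the target cell. It was at 0.244 and 0.277 FPKM in the vehicle libraries and at 0.226, 0.180 and 0.0542 FPKM under diosmetin. The groups did not overlap, but diosmetin replicate 1 lay close to vehicle replicate 1, with 26 and 23 fragments, and the lowest library held 6. The group means were 0.154 ± 0.089 (SD, n = 3) and 0.261 ± 0.023 FPKM (SD, n = 2). Perforin and granzyme B, which act together in the granule, thus stood in opposite directions in these libraries, and neither was called. Nkg7, a granule membrane protein that takes part in their release, was at 0.256 and 0.582 FPKM under vehicle and 0.498, 0.887 and 0.654 FPKM under diosmetin. Its groups overlapped, and its log2 difference of 0.25 ± 0.17 (SE, limma adjusted p = 0.763) came to 0.080 without vehicle replicate 1 and was 0.41 without the other vehicle library.

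**Figure D1:**
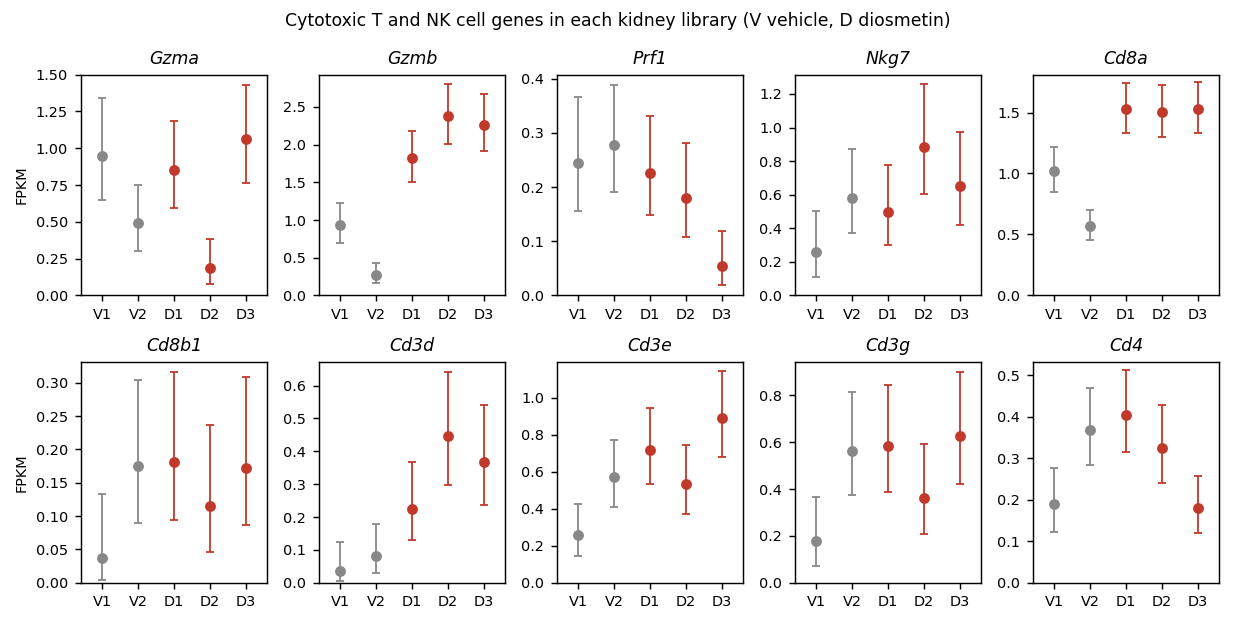
FPKM of each of the 10 genes (vertical axes, linear from 0, each panel on its own scale) in vehicle libraries V1 and V2 (grey) and diosmetin libraries D1, D2 and D3 (red); bars are exact Poisson 95% intervals from the fragments behind each value and cover counting error only. Gzmb, Cd8a and Cd3d stand higher in all 3 diosmetin libraries than in both vehicle libraries, while the other panels overlap or, for Prf1, lie lower.

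Of the co-receptor chains, only Cd8a separated the groups. Cd8a encodes the alpha chain of CD8, which pairs with itself or with the beta chain, and lies on chromosome 6 from 71373427 to 71379171 (GeneID 12525). It was at 1.02 and 0.565 FPKM in the vehicle libraries and at 1.53, 1.5 and 1.53 FPKM under diosmetin, from 123, 86, 224, 202 and 216 fragments. The diosmetin libraries lay within 0.028 FPKM of each other and above both vehicle libraries. The group means were 1.52 ± 0.016 (SD, n = 3) and 0.794 ± 0.324 FPKM (SD, n = 2), a ratio of 1.91. The log2 difference was 0.50 ± 0.14 (SE, limma, unadjusted p = 0.0121, adjusted p = 0.738). Without vehicle replicate 2, the lowest library, it was 0.32, and without vehicle replicate 1 it was 0.69.

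Cd8b1, the beta chain that marks conventional cytotoxic T cells, neighbours Cd8a on chromosome 6 from 71322788 to 71337492 and had far fewer fragments. It was at 0.0368 and 0.174 FPKM in the vehicle libraries and at 0.181, 0.115 and 0.172 FPKM under diosmetin, from 2, 12, 12, 7 and 11 fragments. Vehicle replicate 1 was low and the other 4 libraries lay together, so the groups overlapped. Per length, Cd8a stood at 27.8 and 3.24 times Cd8b1 in the vehicle libraries and at 8.44, 13.1 and 8.88 times in the diosmetin libraries. The alpha chain was thus in excess in every library, by ratios that overlapped between the groups.

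Cd8a is also made by a class of mouse dendritic cells. The markers of those cells in the lists were not alike across libraries. Batf3, a transcription factor they need, was at 0.768 and 1.30 FPKM in the vehicle libraries and at 2.52, 2.91 and 2.40 under diosmetin, a log2 difference of 0.84 ± 0.15 (SE, limma adjusted p = 0.738). Xcr1, their chemokine receptor, was at 0.287 and 0.439 FPKM in the vehicle libraries and at 0.268, 0.909 and 0.572 under diosmetin, and Clec9a, which senses dead cells, at 2.54 and 3.25 against 2.56, 3.17 and 2.81. Itgae, an integrin chain shared by these cells and tissue-resident T cells, was at 0.294 and 0.396 FPKM under vehicle and 0.279, 0.964 and 0.633 under diosmetin. Xcr1, Clec9a and Itgae were picked from the lists after their values were seen. Their part in the level of Cd8a was not tested. In whole kidney RNA, a change in the number of cells of a type and a change in RNA per cell cannot be told apart.

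Cd4, the co-receptor of helper T cells, lies on chromosome 6 from 124864693 to 124888247 (GeneID 12504). It was at 0.189 and 0.367 FPKM in the vehicle libraries and at 0.404, 0.324 and 0.179 FPKM under diosmetin, from 26, 64, 68, 50 and 29 fragments. The lowest and the highest library were both of the diosmetin group. The group means of 0.302 ± 0.114 (SD, n = 3) and 0.278 ± 0.126 FPKM (SD, n = 2) differed by less than their spread.

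The 3 CD3 chains lie together on chromosome 9, Cd3g from 44969572 to 44980431, Cd3d from 44981769 to 44987052 and Cd3e from 44998735 to 45009663, and all 3 were lowest in vehicle replicate 1. Cd3e and Cd3g were both highest in diosmetin replicate 3 (Pearson r = 0.93 between them over the 5 libraries, as a description), while Cd3d alone separated the groups. Cd3d, the delta chain, was at 0.0345 and 0.0817 FPKM in the vehicle libraries and at 0.226, 0.446 and 0.366 FPKM under diosmetin. Those values came from 2 and 6 fragments under vehicle and 16, 29 and 25 under diosmetin, so the ratio of the group means (5.96) rests on 8 vehicle fragments in all, and with vehicle replicate 2 left out it came to 10.04. The groups were apart, although the counting interval of vehicle replicate 2 (0.0299 to 0.178 FPKM) met that of diosmetin replicate 1 (0.129 to 0.367). Cd3d fell under the minimum for the test, a mean of 0.5 FPKM over all libraries.

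Cd3e, the epsilon chain that both CD3 pairs contain, was at 0.257 and 0.569 FPKM in the vehicle libraries and at 0.717, 0.536 and 0.890 FPKM under diosmetin, from 15, 42, 51, 35 and 61 fragments. Vehicle replicate 1 was low, and vehicle replicate 2 lay among the diosmetin libraries. The log2 difference of 0.28 ± 0.16 (SE, limma adjusted p = 0.751) became 0.12 with vehicle replicate 1 left out and 0.44 with vehicle replicate 2 left out. Cd3g, the gamma chain, was at 0.178 and 0.563 FPKM in the vehicle libraries and at 0.584, 0.364 and 0.628 under diosmetin, and its difference of 0.16 turned to -0.040 without vehicle replicate 1. In total the CD3 chains held 24 and 76 fragments in the vehicle libraries and 95, 80 and 115 in the diosmetin libraries. Relative to the mean of the CD3 chains, Gzmb was at 5.98 and 0.681 times under vehicle and at 3.58, 5.30 and 3.61 times under diosmetin, ratios that overlapped.

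Over the 13290 genes with a mean of at least 0.5 FPKM, limma called 0 genes (0.0%) at an adjusted p of 0.05, and 847 genes, 6.37%, had an unadjusted p under 0.05. Of the 10 members, 5 passed that minimum (Gzma, Gzmb, Nkg7, Cd8a and Cd3e) and 0 were called. At the unadjusted level stood 2 of these 5, Gzmb and Cd8a, both higher, against 4.68% of tested genes that were higher at that level. The median log2 difference of the 5 was 0.28, beside 0.043 over all tested genes, and 4 of the 5 had a higher mean under diosmetin, as did 63.9% of tested genes. Cd3e, whose value is that median, and Nkg7 had vehicle means of 0.413 and 0.419 FPKM, under the minimum. They passed it only through the diosmetin libraries, so the minimum itself favours higher differences here. With no minimum the median of all 10 members was 0.21. With no minimum, 3 of all 10 members did not overlap in the higher direction (15.4% of 18145 genes) and 1 in the lower (6.75%). These counts are small, and the shares among all genes are the background against which they are to be read.

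A fit to the recovered fragments themselves (limma-voom, genes with at least 25 fragments over the 5 libraries), chosen after the data were seen, allowed all 10 members to be tested. Of 16021 genes 0 were called (0.0%), and 872, or 5.44%, had an unadjusted p under 0.05 (3.56% in the higher direction). On the scale of fragments per library total, to which voom adds 0.5 fragments, the log2 difference of Gzmb was 2.13 ± 0.52 (SE, adjusted p = 0.834), that of Cd8a 1.04 ± 0.29 (adjusted p = 0.834) and that of Cd3d 2.42 ± 0.80 (adjusted p = 0.834). These were the 3 members at an unadjusted p under 0.05. Prf1 differed by -0.97 ± 0.66, and the other 6 members lay between -0.23 and 0.81.

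**Figure D2:**
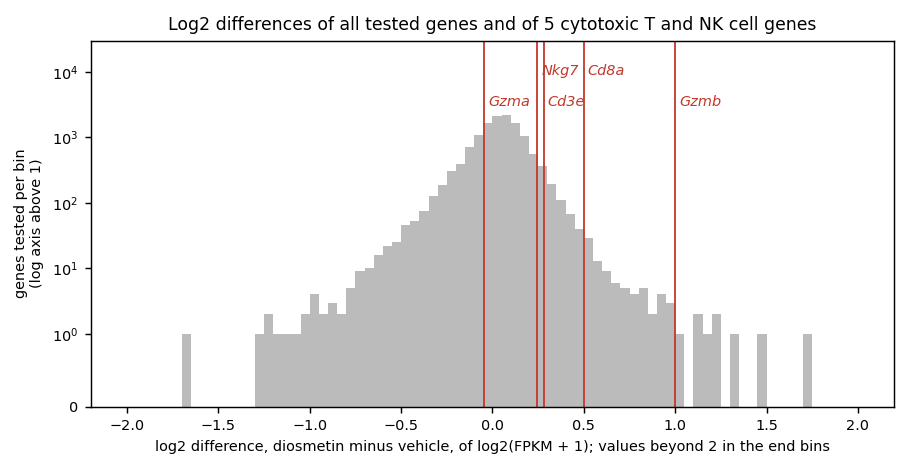
Histogram of the log2 difference (diosmetin minus vehicle) over the 13290 tested genes, with the count per bin on a logarithmic axis above 1; red lines mark the 5 cytotoxic T and NK cell genes that passed the minimum level. Gzmb at 1.0 and Cd8a at 0.50 lie in the upper tail, Nkg7 and Cd3e nearer the bulk, and Gzma at -0.045 within it.

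**Figure D3:**
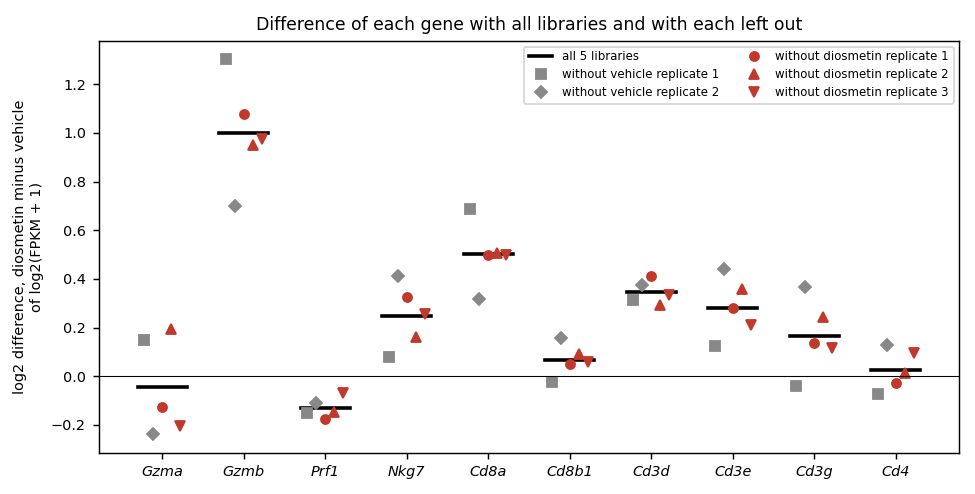
Log2 difference of each gene (vertical axis, diosmetin minus vehicle) with all 5 libraries (black line) and with each library left out (grey for a vehicle library, red for a diosmetin library). Gzmb, Cd8a, Cd3d, Nkg7 and Cd3e stay above 0 and Prf1 below 0 in all 5 cases, while Gzma, Cd8b1, Cd3g and Cd4 cross 0 in at least 1.

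Other genes of killing and of the T cell receptor pathway gave no calls. Some stood higher in all 3 diosmetin libraries and some killing genes lower, and both counts are given beside the shares of all genes. Of 22 other granule and killing genes measured, 10 were tested and 0 were called in either direction, with 5 higher and 5 lower means and a median log2 difference of -0.040. Tnfsf10, the death ligand TRAIL, was at 8.71 and 12.5 FPKM under vehicle and 7.90, 7.21 and 7.80 under diosmetin (-0.41 ± 0.14, SE). Serpinb9, the inhibitor of granzyme B in mice, was at 4.29 and 6.04 against 5.69, 6.96 and 7.29 FPKM (0.32 ± 0.16), and Rab27a, a GTPase of granule release, at 7.49 and 7.91 against 7.36, 10.8 and 11.2 FPKM. Stx11, a fusion protein of granule release, was highest in vehicle replicate 2 (1.60 FPKM) and at 0.393 to 0.927 FPKM in the other libraries. With no minimum, 2 of the 21 genes above 0 did not overlap in the higher direction and 2 in the lower (15.4% and 6.75% of all genes). The lower pair was Tnfsf10 and Lamp1, the latter at 508 and 511 FPKM under vehicle and 473, 437 and 494 under diosmetin. The higher pair was Fasl, the Fas ligand, with 1 and 6 fragments under vehicle and 6, 8 and 10 under diosmetin, and Slamf7, a receptor of NK and other cells, at 0.0692 and 0.193 against 0.213, 0.222 and 0.215 FPKM. Of 8 other granzyme genes 1 was tested, Gzmm, with 37 and 41 fragments under vehicle and 60, 40 and 42 under diosmetin (0.07 ± 0.13, SE), and its groups overlapped. Gzmf held 67 fragments in vehicle replicate 2, at most 22 under diosmetin and 0 in vehicle replicate 1. Gzmg, Gzmd, Gzmc, Gzme and Gzmk reached at most 0.690, 0.812, 0.203, 0.554 and 0.104 FPKM in a library. Their fragments are not given, because the recovery understates them where all counts of a gene share a divisor. Neighbouring granzymes of this family are alike in sequence, so reads could be split between them. Ifng, the interferon gamma gene, had at most 4 fragments, and Gzmn was listed at 0 throughout.

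Of 25 T cell receptor signalling genes, 11 were tested and 0 were called, with 6 higher and 5 lower and a median of 0.061. Thy1, a surface protein of mouse T cells and of some stromal cells, was at 0.615 and 0.735 FPKM in the vehicle libraries and at 1.02, 1.02 and 1.43 under diosmetin (0.36 ± 0.14, SE). Lat, the adaptor that carries the receptor signal, was at 0.465 and 0.399 against 0.662, 0.722 and 0.722 FPKM. Vav1, a signalling protein of blood cells, was at 0.519 and 1.79 FPKM under vehicle and between 0.489 and 1.04 under diosmetin, and Ptprcap at 1.17 and 1.34 against 0.529, 1.15 and 1.54 FPKM. Vav1 was thus highest in vehicle replicate 2, unlike Thy1 and Lat. With no minimum, 6 of the 25 did not overlap in the higher direction and 0 in the lower, against 15.4% and 6.75% of all genes. They were Thy1, Lat, Cd5, a surface protein that dampens the receptor signal, and Sit1, Sh2d1a and Trat1, of which each had at most 8 fragments in a library. Cd5 was at 0.230 and 0.218 FPKM under vehicle and 0.320, 0.400 and 0.244 under diosmetin.

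Among 30 measured genes of NK cell receptors and regulators, 6 were tested and 0 were called, with 2 higher, 4 lower and a median of -0.072. Tyrobp, an adaptor of activating receptors that macrophages also make, was at 2.79 and 19.7 FPKM under vehicle and 10.3, 5.76 and 4.63 under diosmetin, and Fcer1g, a like adaptor, at 1.54 and 7.94 against 4.70, 2.76 and 2.69 FPKM. Hcst, an adaptor too, was at 0.354 to 1.11 FPKM, and the cytokine Il15 at 7.18 to 9.42 FPKM. The defining NK cell receptors were under the minimum and went in both directions. With no minimum, 3 of the 30 did not overlap in the higher direction and 2 in the lower, against 15.4% and 6.75% of all genes. These counts do not exceed those shares. The higher 3 were Il2rb, a receptor chain for interleukin-2 and interleukin-15 that T cells share, at 0.119 and 0.337 against 0.536, 0.564 and 0.518 FPKM, Eomes, a T-box factor of NK and CD8 T cells, at 0.0561 and 0.0332 against 0.109, 0.156 and 0.155, and Klrd1, the CD94 chain, at 0.228 and 0.229 against 0.339, 0.388 and 0.317. Ncr1, which encodes NKp46, was at 0.397 and 0.382 FPKM against 0.325, 0.0925 and 0.264, lower without overlap, as was Klra7, a receptor of the Ly49 family. Klrb1c, the NK1.1 antigen, had 5 and 23 fragments under vehicle and 9, 8 and 27 under diosmetin, and its groups overlapped.

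Of 23 T cell subset and state genes, 9 were tested and 0 were called, with 5 higher, 4 lower and a median of 0.020. Gata3 was at 9.0 and 9.94 FPKM in the vehicle libraries and at 11.2, 13.5 and 11.5 under diosmetin (0.31 ± 0.10, SE). Gata3, which is also a factor of the collecting duct, and Bcl6 (2.91 to 7.54 FPKM) stood well above the CD3 chains. Tcf7, a factor of naive and memory T cells, was at 0.266 and 0.632 against 0.584, 0.884 and 0.834 FPKM. Foxp3, the factor of regulatory T cells, was at 0.590 and 0.775 against 0.451, 0.503 and 0.778 FPKM. Of 13 measured chemokines and receptors that draw T and NK cells, 9 were tested and 0 were called, with 4 higher, 5 lower and a median of -0.032. Ccl5, made by activated T and NK cells, was at 0.832 and 4.14 FPKM under vehicle and 2.25, 0.874 and 0.999 under diosmetin, and its highest library was the one lowest in Gzmb. Cxcl10, a chemokine induced by interferons, was at 1.16 and 6.84 against 1.76, 1.08 and 2.27 FPKM. The chemokine Cx3cl1 was at 16.6 and 23.4 against 22.4, 25.1 and 28.3 FPKM.

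Markers of other leukocytes moved between the same libraries. Macrophage and dendritic cell markers summed to 40.6 FPKM in vehicle replicate 1, to 175 in the second vehicle library and to 125, 66.5 and 68.4 in diosmetin replicates 1, 2 and 3, and 12 of the 13 tested were highest in vehicle replicate 2 (17.8% of all tested genes were). The 13 had a median of -0.13, with 5 higher and 8 lower. Of the neutrophil and mast cell markers 7 of 10 were above 0, and 3 of these were higher without overlap and 1 lower, against 15.4% and 6.75% of all genes. The other 3 overlapped (Cxcr2, Cpa3 and Tpsb2). The 3 higher were the ones tested. Of these, S100a8 and S100a9 had vehicle means of 0.467 and 0.319 FPKM and passed the minimum only through the diosmetin libraries. S100a9, a calcium-binding protein of neutrophils, was at 0.0497 and 0.589 FPKM under vehicle and 2.69, 1.11 and 2.49 under diosmetin (1.22 ± 0.30, SE), and S100a8 at 0.199 and 0.735 against 1.03, 1.30 and 1.98 (0.74 ± 0.23). Kit, of mast cells and other cells, was at 11.8 and 11 against 14.2, 13.5 and 14.3 FPKM, and 3 of the 10 were listed at 0 throughout. Ly6g, a marker of neutrophils, went the other way from S100a8 and S100a9, at 0.723 and 0.594 FPKM under vehicle and 0.456, 0.0745 and 0.308 under diosmetin, from 26, 27, 20, 3 and 13 fragments. B and plasma cell markers had 4 of 11 tested, all 4 higher, with a median of 0.21. With no minimum, however, 1 of the 11 was higher without overlap and 5 were lower (15.4% and 6.75% of all genes). Red blood cell markers had 5 of 6 tested, all 5 lower, and summed to 223 to 745 FPKM, with the lowest sum in diosmetin replicate 1. The part of these cells in the levels of the 10 genes was not tested.

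**Figure D4:**
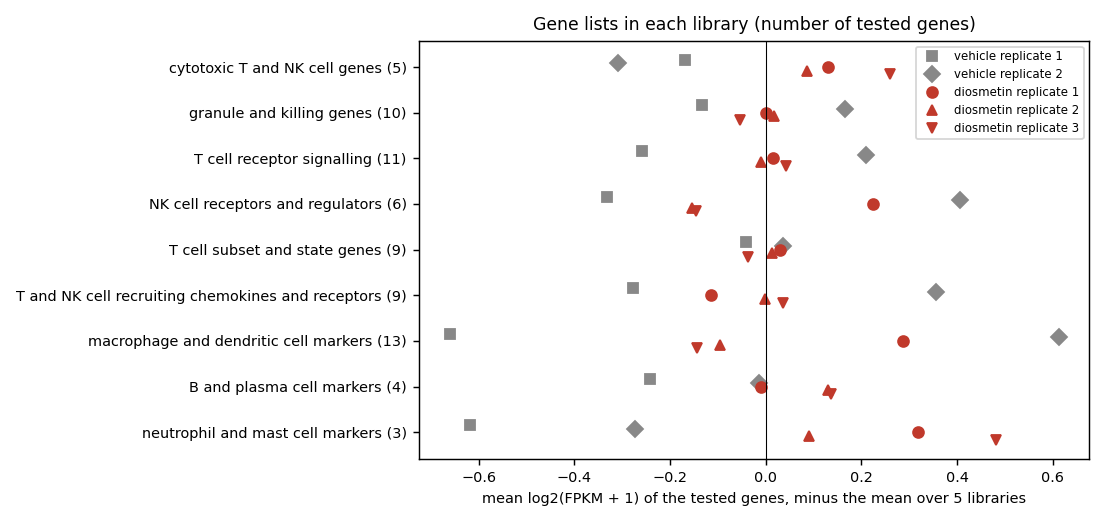
Mean log2(FPKM + 1) of the tested genes of each list in each library, less the mean over the 5 libraries (horizontal axis), with the number of tested genes in parentheses, vehicle libraries in grey and diosmetin libraries in red. The cytotoxic T and NK cell genes, the neutrophil and mast cell markers and the B and plasma cell markers lie higher in the 3 diosmetin libraries, the last by little in diosmetin replicate 1. In every other list shown, those of T and NK cells included, vehicle replicate 1 is the lowest and vehicle replicate 2 the highest. Only tested genes are shown, 3 for the neutrophil and mast cell markers. Of the tested genes, S100a8, S100a9, Cd3e and Nkg7 had vehicle means under the minimum of 0.5 FPKM.

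The pattern of the 5 tested members was taken as the mean of their log2 values in each library. Of the tested genes, 450 spanned at least 1 on the log2 scale, and those outside the members were compared with this pattern. The 6 most alike by Pearson r over the 5 libraries were Lyz1 (0.985), Tff3 (0.942), Dpys (0.903), S100a9 (0.827), Apoe (0.826) and Batf3 (0.792). Lyz1, a lysozyme, was at 1.05 and 0.862 FPKM in the vehicle libraries and at 2.11, 2.30 and 2.99 under diosmetin. Dpys, a pyrimidine-degrading enzyme, was at 4.99 and 3.90 against 11.5, 7.63 and 8.73 FPKM. All 6 were higher in the 3 diosmetin libraries than in both vehicle libraries. The pattern they were picked to follow is itself higher there, so this is largely set by the choice. With 5 points, these values only rank the genes.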

How the data were processed

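The deposited table gives FPKM values, made by the authors, in 5 columns. Total RNA with an integrity number of at least 7 was, per the labels' protocols, depleted of ribosomal RNA and made into stranded, paired-end libraries, and per the submitters' processing notes the build was GRCm38. The aligner, counter, annotation and strand setting were not given in the sources used here, and therefore overlapping and antisense genes cannot be separated with certainty. Columns were matched to samples by the sample code in the labels, groups by the treatment label, and 0 columns of sample values were left unused. Replicates were numbered in deposit order, and the numbers pair nothing.

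The members and lists were chosen with earlier results of these data known. Whole fragments and depths (38.4, 48.6, 46.9, 43.0 and 45.1 M in vehicle replicates 1 and 2 and diosmetin replicates 1, 2 and 3) were computed from the step of each gene's values, taking the smallest whole transcript length that gives whole fragments. Where all counts of a gene share a divisor, this understates its length and its fragments. The recovered lengths of the members were 0.923 to 1.16 times the nearest GENCODE transcript. Lengths of other genes were not checked in this way. The test was limma (lmFit and eBayes with a trend, 3 residual degrees of freedom) on log2(FPKM + 1), two-sided, over genes averaging at least 0.5 FPKM, with Benjamini-Hochberg adjustment at 0.05. It was also run on data simulated from its own fitted model. That run cannot show how the test behaves where the real data depart from the model. Named are the 10 members, up to 4 genes per list with the largest absolute log2 difference, 6 genes by likeness and kidney markers. Genes named beside these (Xcr1, Clec9a, Itgae, Foxp3, Fasl, Slamf7, Lamp1, the granzymes other than A and B, Ifng, Cd5, Sit1, Sh2d1a, Trat1, Il2rb, Eomes, Klrd1, Klra7, Ncr1, Klrb1c, Ly6g, Cxcr2, Cpa3, Tpsb2, Lyz2 and Cdc20b) were picked after their values were seen. Some list genes covered by this rule are left unreported, though counts over the lists include them. Alternatives were a pseudocount of 0.1, no minimum, a minimum of 1, median-of-ratios scaling, TPM, no trend and leaving out each library. The limma-voom fits were added after the data were seen. Tools were limma 3.58.1 in R 4.3.3 and scipy 1.17.1, pandas 2.3.3, numpy 2.4.6 and matplotlib 3.10.9 in Python 3.11.15.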

Additional observations from a re-analysis of the deposited data

How the results depend on the processing

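Of 97 values of the 10 genes under an alternative, 85 kept their direction and stayed on the same side of the threshold or within the spread of the replicates. Limma and limma-voom called 0 genes, and 0 members, under each alternative run. The direction turned only where a library was left out. Without vehicle replicate 1 the log2 differences were 0.15 for Gzma, -0.023 for Cd8b1, -0.040 for Cd3g and -0.074 for Cd4. Without diosmetin replicate 2 Gzma was at 0.19, and without diosmetin replicate 1 Cd4 was at -0.029. When each library was left out in turn the differences ranged from -0.24 to 0.19 for Gzma, from -0.023 to 0.16 for Cd8b1, from -0.040 to 0.37 for Cd3g and from -0.074 to 0.13 for Cd4. The cause was not tested.

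The median log2 difference of the tested members was 0.71 with log2(FPKM + 0.1), 0.52 on TPM and 0.75 with a minimum of 1 FPKM, which leaves 2 members, and it ranged from 0.15 to 0.41 when each library was left out. Genes at an unadjusted p under 0.05 numbered from 386 (without diosmetin replicate 2) to 1463 (without vehicle replicate 2), and those whose groups did not overlap from 4082 to 8293 against 3253, since fewer libraries overlap less often. Over the alternatives the adjusted p ranged from 0.382 to 1.0 for Gzmb and from 0.424 to 1.0 for Cd8a.

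No paired analysis was possible because the labels give no replicate numbers within the groups. Depth limits Cd8b1, Cd3d and Prf1 most, with as few as 2, 2 and 6 fragments in a library.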
